A study of Mus with 9 samples.

Results

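The complement components and receptors C1qa, C1qb, C1qc, C3, C4b, Serping1, C3ar1 and C5ar1 were followed in the hippocampus of SAMR1, SAMP8 and trigonelline (TG)-treated SAMP8 mice. These 8 genes were taken by gene symbol from 22206 probe sets of the Clariom S Mouse array, a probe set being the group of short probes for 1 transcript cluster, and each gene had 1 probe set. SAMP8 is an inbred strain of the senescence-accelerated mouse, in which learning and memory deficits appear early in life, and SAMR1 is the related senescence-resistant strain that serves as its control. The mice were males, given in the study's methods as 16 weeks old. The SAMR1 and SAMP8 groups received vehicle by mouth, called saline in the sample records and water in the methods. The third group, TG-treated SAMP8, received TG, an alkaloid of coffee and fenugreek, at 5 mg/kg per day for 30 days, and dosing went on during the water maze testing that followed. Each group had 3 arrays in the records, whereas the series text speaks of duplicate samples, and a description attached to each record is of a macrophage cell line given another treatment.

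The deposited tables hold group averages on the log2 scale and no values per array used here, so every level below is an average over the arrays of a group, without an error. No difference was set against the spread between mice, and no p-value was computed. A difference of 1.5-fold (0.585 on the log2 scale) was used as a descriptive limit, and counts past it are given with the share of all probe sets past it. Over all probe sets, the median average was 6.09 (SAMR1), 6.04 (SAMP8) and 6.07 (TG-treated SAMP8). Of 10 hippocampal neuron markers with a probe set of their own, 8 lay in the brightest 25% of probe sets by the mean of the 3 averages, among them Neurod6, a transcription factor of pyramidal neurons, at 14.86 (SAMR1), 14.85 (SAMP8) and 14.88 (TG-treated SAMP8). The list itself was not level between the groups, with 3 of 10 higher past the limit in SAMP8 than in SAMR1 (Spink8 by 1.30, Calb1 by 0.70 and Prox1 by 0.59 on the log2 scale), beside 11.1% of all probe sets. The list's median difference was 0.21, beside 0.12 over the brightest 25% of probe sets. With TG, 1 of 10 was lower past it than in SAMP8 (Prox1, -0.85), beside 8.21%.

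Complement is a cascade of plasma and tissue proteins that marks targets for removal. In the classical pathway, C1q, built from the chains encoded by C1qa, C1qb and C1qc, binds the target and activates the proteases of the C1 complex, which cleave C4 and C2 and lead to the cleavage of C3. Fragments of C3 coat the target, the small fragments C3a and C5a signal through the receptors C3ar1 and C5ar1, and the C1 inhibitor encoded by Serping1 holds the proteases in check. In the brain, microglia are the main source of C1q, and C1q and C3 are known for tagging synapses that microglia remove during development and in models of neurodegeneration.

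The C1q chains were the members that differed most between groups, and they did not differ in the same direction. Relative to SAMR1, the SAMP8 average was higher for C1qb and C1qc and lower for C1qa. With TG, the average of C1qa was higher than in SAMP8, that of C1qb was lower, and that of C1qc was slightly higher. No member reached a 2-fold difference in any of the 3 comparisons.

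**Figure D1:**
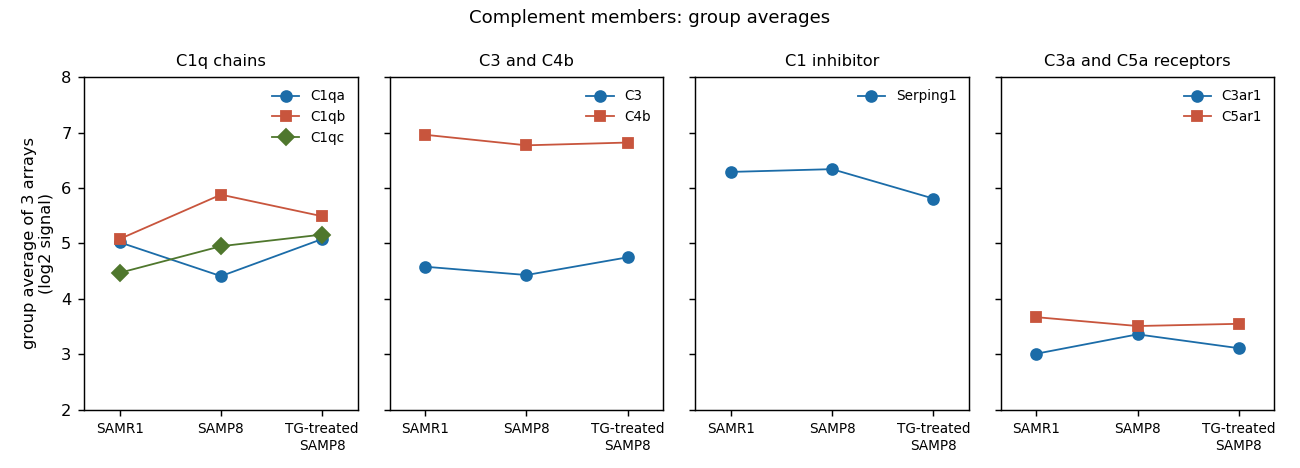
Group averages (log2 signal, vertical axis) of the 8 complement genes in SAMR1, SAMP8 and TG-treated SAMP8, 1 point per gene and group, with lines only to guide the eye and no error because values per array were not used. C1qb is highest in SAMP8 at 5.88, where C1qa is lowest at 4.41, while C4b stays between 6.77 and 6.96.

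C1qa, on chromosome 4 from 136895916 to 136898844 (mouse build GRCm38), encodes the A chain. Its average was 5.02 (SAMR1), 4.41 (SAMP8) and 5.08 (TG-treated SAMP8). The untreated SAMP8 group was thus the low one, and the other two groups lay within 0.06 of each other. The SAMP8 average was 1.53-fold lower than that of SAMR1 (log2 difference -0.61), and 5.65% of all probe sets were at least as far below. This difference was near the limit and fell short of it when the median of all probe sets was subtracted from each group (-0.56) or when the median of probe sets of like signal was subtracted (-0.53). The TG-treated average was 1.59-fold higher than that of SAMP8 (log2 difference 0.67), as high as or higher than the difference of all but 3.08% of the probe sets. It stayed past the limit with the median of like signal subtracted (0.62).

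C1qb, on chromosome 4 from 136880126 to 136886200, encodes the B chain. It averaged 5.08 (SAMR1), 5.88 (SAMP8) and 5.49 (TG-treated SAMP8), so that untreated SAMP8 was the high group and the treated group lay between. At 1.74-fold (log2 difference 0.80), the strain difference of C1qb was the largest of any member in any comparison, and 1.91% of all probe sets had one as high. Between TG-treated and untreated SAMP8 it was 1.31-fold lower (log2 difference -0.39), which is within the limit, and 10.8% of the probe sets were at least as far below.

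C1qc, on chromosome 4 from 136889801 to 136892936, encodes the C chain. The averages were 4.47, 4.95 and 5.16 in SAMR1, SAMP8 and TG-treated SAMP8, an order in which neither step reached 1.5-fold (log2 differences 0.48 and 0.21). From the first to the last group the difference was 1.61-fold (0.69 on the log2 scale).

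The protein needs all 3 chains, so their averages were also set against each other as differences between groups. Between SAMP8 and SAMR1, the log2 difference of C1qa was 1.41 below that of C1qb and 1.09 below that of C1qc, while C1qb and C1qc were 0.32 apart. With TG, C1qa stood 1.06 above C1qb and 0.46 above C1qc. Relative to SAMR1, the averages of TG-treated SAMP8 were above 0 for all 3 chains, at 0.06, 0.41 and 0.69 for C1qa, C1qb and C1qc. The 3 chains lie in the same signal class, so that centring shifts them alike and leaves the differences between chains as they are. The small difference of C1qa was between 0.01 and 0.1 under the 3 centrings tried, by the median of all probe sets, of the brightest 25% and of probe sets of like signal.

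**Figure D2:**
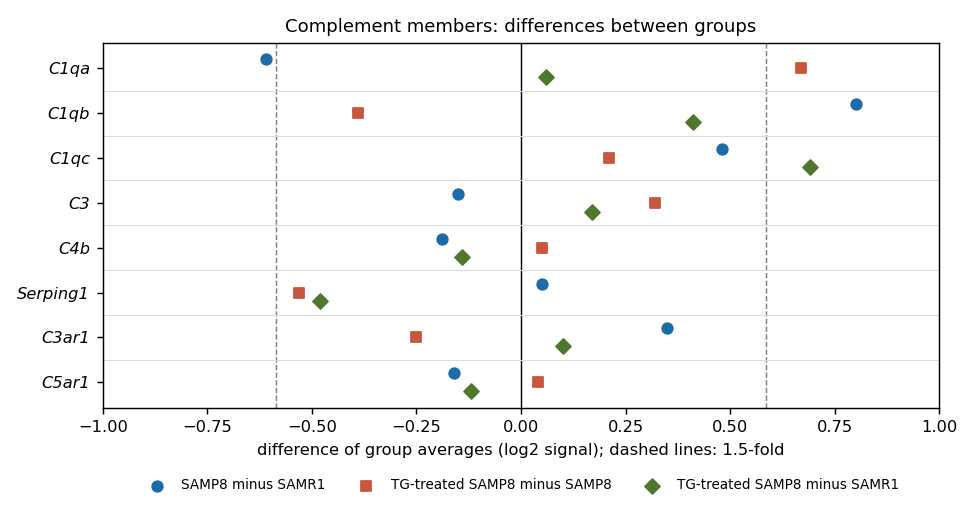
Differences of group averages (log2 signal, horizontal axis) of the 8 complement genes for the 3 comparisons, 1 point each, with dashed lines at 1.5-fold. C1qb and C1qa lie past the lines on opposite sides for SAMP8 minus SAMR1 (0.80 and -0.61), C1qa for TG-treated SAMP8 minus SAMP8 (0.67) and C1qc for TG-treated SAMP8 minus SAMR1 (0.69).

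The 3 C1q genes lie side by side, within 18719 bases of chromosome 4, in the order C1qb, C1qc and C1qa. Gaps of 3600 and 2979 bases part them. Within 500 kb on either side, 9 other genes had a probe set of their own. Between SAMP8 and SAMR1 these neighbours had a median log2 difference of 0.03, from -0.57 for Wnt4 to 0.83 for Zbtb40, a zinc finger gene and the only one of the 9 past 1.5-fold (beside 11.1% of all probe sets). Zbtb40 averaged 5.70 (SAMR1), 6.53 (SAMP8) and 5.91 (TG-treated SAMP8), the same order of groups as C1qb. Epha8, the gene next to C1qa, stayed between 3.34 and 3.41, and Ephb2, next to C1qb, between 4.08 and 4.51.

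**Figure D3:**
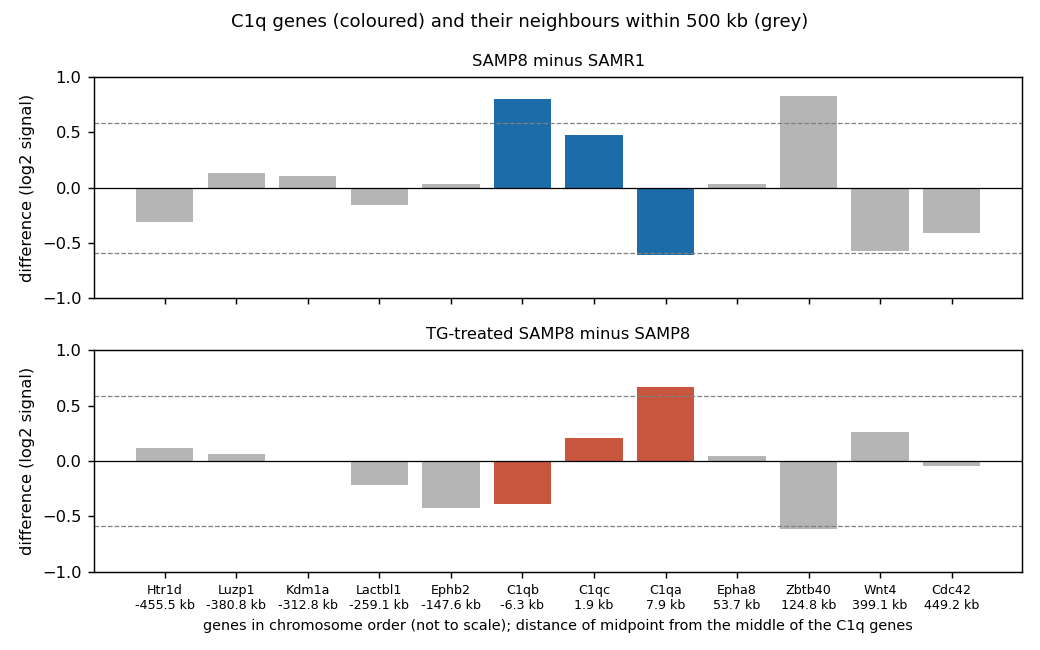
Differences of group averages (log2 signal, vertical axis) for the 3 C1q genes (coloured) and 9 neighbouring genes (grey) in their order along chromosome 4, for SAMP8 minus SAMR1 above and TG-treated SAMP8 minus SAMP8 below, with dashed lines at 1.5-fold. In the upper panel C1qb (0.80), Zbtb40 (0.83) and, below 0, C1qa (-0.61) pass the lines.

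C3 and C4b, the components whose fragments attach to targets, stayed within 1.5-fold in all 3 comparisons. C3, on chromosome 17 from 57203967 to 57228136, averaged 4.58 (SAMR1), 4.43 (SAMP8) and 4.75 (TG-treated SAMP8). It was 1.25-fold higher with TG than in untreated SAMP8 (log2 difference 0.32), and 15.8% of the probe sets were at least as far above. C4b, on chromosome 17 from 34728139 to 34743902, is the mouse C4 gene of the classical pathway. Its averages were 6.96, 6.77 and 6.82 in the order SAMR1, SAMP8 and TG-treated SAMP8. The largest of its differences was that of SAMP8 from SAMR1, 1.14-fold lower. The close homologue C4a stood at 4.08, 4.01 and 4.09, and whether the probe sets of these similar genes share signal was not tested.

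Serping1, on chromosome 2 from 84765360 to 84775444, encodes the C1 inhibitor, which blocks C1r and C1s. The averages were 6.29 (SAMR1), 6.34 (SAMP8) and 5.81 (TG-treated SAMP8). The strains were thus 0.05 apart, and the treated group lay below both. The TG-treated average was 1.44-fold lower than that of SAMP8 (log2 difference -0.53) and 1.39-fold lower than that of SAMR1 (-0.48), neither past the limit. At least as far below SAMP8 were 5.20% of all probe sets.

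The anaphylatoxin receptors had the lowest averages, both in the lowest 25% of probe sets by signal. C3ar1, the receptor for C3a on microglia and other myeloid cells (chromosome 6 from 122847140 to 122856157), averaged 3.01, 3.36 and 3.11 in SAMR1, SAMP8 and TG-treated SAMP8. Its highest group was SAMP8, 1.27-fold above SAMR1 and 1.19-fold above TG-treated SAMP8. C5ar1, the receptor for C5a (chromosome 7 from 16246743 to 16259540), stood at 3.67, 3.51 and 3.55, a range of 0.16 over the groups. The averages come with no detection call, so whether these receptor signals lay above the array background is not known. The same holds for averages near the upper bound of that lowest 25% (4.40), such as C1qa (4.41) and C3 (4.43) in SAMP8 and C1qc (4.47) in SAMR1.

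Counted together, 2 of the 8 members were past 1.5-fold between SAMP8 and SAMR1, C1qb above and C1qa below, where 11.1% of all probe sets were past it, 5.0% above and 6.08% below. The numbers of members on each side of 0 were equal, 4 and 4, and the median of their log2 differences was -0.05 beside 0.00 over all probe sets. With TG, 1 of 8 was past the limit (C1qa) beside 8.21% of all probe sets (4.48% above and 3.74% below), and the median was 0.04 beside 0.01. Between TG-treated SAMP8 and SAMR1 it was again 1 of 8 (C1qc) beside 10.5% (5.62% above and 4.83% below), with a median of 0.08 beside -0.01. With 8 members, the 1 or 2 genes past the limit in each comparison stand near what these background shares give. The comparisons with TG and with SAMR1 share the SAMP8 averages, and the third comparison is the sum of the other two, so a single high or low SAMP8 average places a gene on opposite sides of 0 in the first and second comparison.

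The background depends on signal. The probe sets were ranked by the mean of their 3 averages and put into 4 signal classes of equal size. In the second lowest class, between 4.40 and 6.08, where C1qa, C1qb, C1qc and C3 lie, the median log2 difference of SAMP8 from SAMR1 was -0.08, with 10.2% of them lower and 3.46% higher past the limit. In the brightest class the median was 0.12. C1qa therefore lay on the side where more of its like-signal probe sets lay, and C1qb on the other side.

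Another 48 genes of the cascade are reported from a list of its proteases, regulators and receptors (50 probe sets). Between SAMP8 and SAMR1, 8 of the 50 were past 1.5-fold, which is 16% beside 11.1% of all probe sets, with 4 higher and 4 lower in SAMP8. With TG, 0 of the 50 reported here were past it (beside 8.21% of all probe sets), and between TG-treated SAMP8 and SAMR1 it was 2 of 50 (4.0% beside 10.5%). The list's median log2 differences were 0.04, -0.07 and 0.00. The split between the strains depended on the scaling, with 7 higher and 1 lower in SAMP8 once the median of all probe sets was subtracted, 4 and 0 with the median of like-signal probe sets subtracted, and 2 and 5 with the brightest signal class as the centre. Of the 8, Vtn and C8a were past the limit under all 3 centrings.

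**Figure D4:**
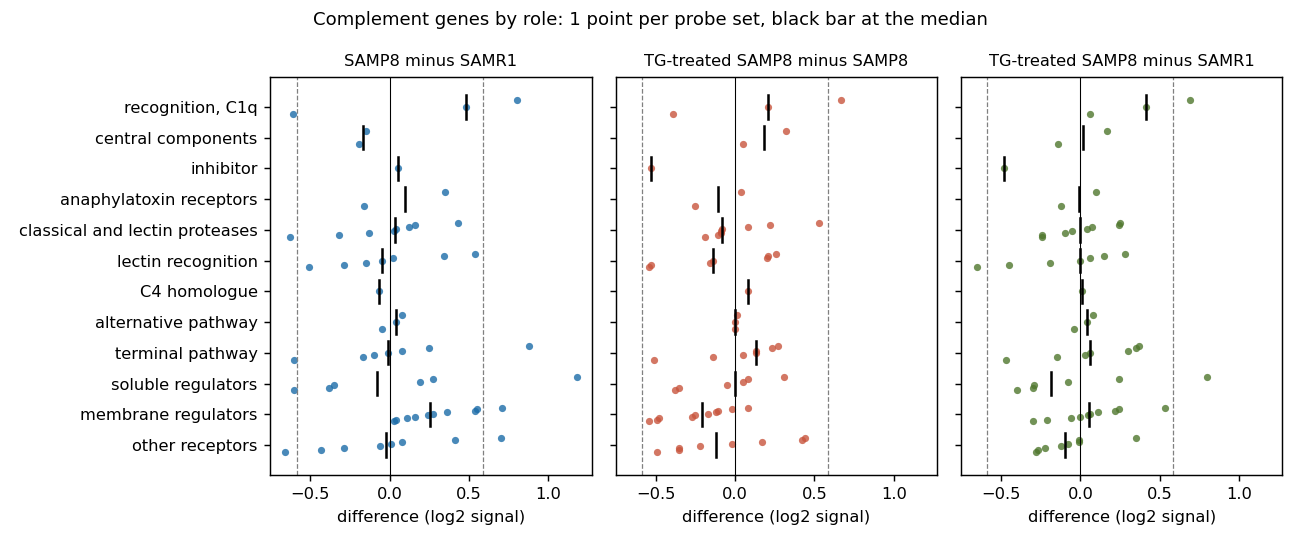
Differences of group averages (log2 signal, horizontal axis) for the 8 complement members and the 48 other genes of the cascade, grouped by role, in the 3 comparisons. Each point is a probe set, black bars are medians and dashed lines mark 1.5-fold; the membrane regulators lie between 0.03 and 0.71 for SAMP8 minus SAMR1.

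Vtn, the soluble regulator vitronectin, which keeps the terminal complex from inserting into membranes, had the largest difference of these genes. It averaged 10.94 (SAMR1), 12.12 (SAMP8) and 11.74 (TG-treated SAMP8). The SAMP8 groups were both above SAMR1, by 2.27-fold without TG and 1.74-fold with it, and 0.482% of all probe sets were as far above SAMR1 in SAMP8. Cfi, the protease that inactivates fragments of C3 and C4, stood at 3.30, 2.70 and 3.01, in the lowest signal class, where a level above the array background is not known. Its strain difference of -0.60 on the log2 scale was -0.55 with the median of all probe sets subtracted, short of the limit.

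C1s1, the protease that C1q brings into action and that the C1 inhibitor blocks, averaged 5.49 (SAMR1), 4.86 (SAMP8) and 5.39 (TG-treated SAMP8). It was 1.55-fold lower in SAMP8 than in SAMR1 (-0.63 on the log2 scale, and -0.58, short of the limit, with the median of all probe sets subtracted), and 1.44-fold higher with TG than without, so that untreated SAMP8 was its lowest group, as it was for C1qa. C1ra, its partner in the C1 complex, stayed between 5.17 and 5.26. Of the 8 probe sets of classical and lectin proteases, C1s1 was as deposited the only one past 1.5-fold in any comparison, 1 of 8 between the strains beside 11.1% of all probe sets. With the brightest signal class as the centre it was also past the limit with TG (0.61). Colec11, a lectin that starts the lectin pathway, averaged 4.93, 4.42 and 4.28, and TG-treated SAMP8 was 1.57-fold below SAMR1.

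In the terminal pathway, which forms the membrane attack complex, C8a was 1.84-fold higher in SAMP8 than in SAMR1 and averaged 4.14, 5.02 and 4.51 in SAMR1 and the SAMP8 groups without and with TG. C7, another terminal component, went the other way at 6.24, 5.64 and 5.77. Neither C8a nor C7 passed 1.5-fold with TG. The SAMR1 average of C8a lay below the upper bound of the lowest signal class (4.40), where a level above the array background is not known. C8b and C8g, also of the terminal pathway, differed by 0.08 and -0.10 on the log2 scale between the strains. For C7, the strain difference of -0.60 on the log2 scale was -0.55 with the median of all probe sets subtracted and -0.52 with that of like signal, both short of the limit. The alternative pathway genes Cfb, Cfd and Cfp differed by at most 0.08 in any comparison.

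Among the 10 membrane regulators, which protect cells from complement, all averaged higher in SAMP8 than in SAMR1 as deposited, beside 49.5% of all probe sets, and 9 of 10 averaged lower with TG than without, beside 48.3%. Cd59b, an inhibitor of the membrane attack complex, was the only one past 1.5-fold between the strains as deposited (1 of 10 beside 11.1% of all probe sets), at 5.90 (SAMR1), 6.61 (SAMP8) and 6.12 (TG-treated SAMP8). Subtracting the median of all probe sets left 10 of 10 higher and put 3 past the limit. Centring on the brightest signal class, which shifted by 0.13 between the strains, left 7 of 10 higher and 0 past the limit (Cd59b at 0.58), and centring on like signal left 8 higher and 1 past it. Of the other receptors, Itgam, a subunit of the microglial receptor for C3 fragments, averaged 7.10, 7.80 and 7.45. It was 1.62-fold higher in SAMP8 than in SAMR1. This log2 difference of 0.70 was 0.57, short of the limit, with the brightest signal class as the centre. Itgb2, also among the other receptors, stood at 3.96, 3.97 and 3.95, in the lowest signal class. Vsig4, a receptor for C3 fragments on tissue macrophages, stood at 4.54, 3.88 and 4.32 in the same order, in the lowest signal class. Its strain difference of -0.66 on the log2 scale was -0.58, short of the limit, with the median of like-signal probe sets subtracted.

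Markers of the cells that make these proteins were read beside them. In bulk tissue, fewer cells of a type and less RNA per cell cannot be told apart. Of 14 microglia markers, 3 were higher and 2 lower past 1.5-fold in SAMP8 than in SAMR1 (5 of 14 or 35.7%, beside 11.1% of all probe sets), with a median log2 difference of -0.12 and a mean over the list of 7.40 in SAMR1 and 7.47 in both SAMP8 groups. Aif1, the gene of the microglial protein Iba1, averaged 5.71 (SAMR1), 7.22 (SAMP8) and 6.78 (TG-treated SAMP8), P2ry12, a receptor of resting microglia, 11.17, 12.03 and 11.60, and Trem2, a lipid receptor of microglia, 5.51, 4.81 and 5.21. Aif1 and P2ry12 thus had the order of groups of C1qb, and Trem2 was lowest in SAMP8 as C1qa was. Some other markers of the list had neither order. Cx3cr1 (7.25, 6.94 and 6.63) and Siglech (7.45, 7.19 and 6.99) were highest in SAMR1 and lowest with TG. Csf1r (9.13, 9.22 and 9.52) was lowest in SAMR1 and highest with TG. With TG, 0 of the 14 were past the limit, beside 8.21% of all probe sets. Tyrobp, the adaptor of Trem2, lay in the lowest signal class at 3.95, 3.71 and 4.00. What part microglial content had in the C1q averages was not tested.

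Of 10 astrocyte markers, 3 were higher past 1.5-fold in SAMP8 than in SAMR1 and 0 lower, beside 5.0% and 6.08% of all probe sets. The other 7 were within the limit, and the list's median log2 difference was 0.18 beside 0.12 in the brightest signal class, which holds 7 of the 10. Past the limit were among others Gfap, the intermediate filament of reactive astrocytes, at 11.08 (SAMR1), 12.03 (SAMP8) and 11.92 (TG-treated SAMP8), and Serpina3n, a protease inhibitor of reactive astrocytes, at 10.76, 11.73 and 11.44. C3 and C4b, which reactive astrocytes can make, were 0.15 and 0.19 lower on the log2 scale in SAMP8 in the same comparison.

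Of 12 meningeal fibroblast markers, 5 were higher and 2 lower past 1.5-fold in SAMP8 than in SAMR1 (58.3% beside 11.1% of all probe sets), with a median log2 difference of 0.32. Between SAMP8 with and without TG, 6 were lower past the limit in the treated group and 0 higher, beside 3.74% and 4.48% of all probe sets. The median log2 difference was -0.60, with list means of 6.86 (SAMR1), 7.22 (SAMP8) and 6.45 (TG-treated SAMP8). This list, like the others, was chosen with earlier results of these data known. It holds Ptgds and Igf2, which the study itself reports among its most lowered genes with TG, so its share past the limit is no independent measure. Ptgds, which makes prostaglandin D2 and is abundant in the meninges, averaged 9.39, 10.26 and 7.57, and Fmod, a matrix proteoglycan, 4.66, 6.09 and 4.21. Serping1, known to be made by fibroblasts, had its lowest average in TG-treated SAMP8, as Ptgds and Fmod did. Other markers of the list had another order, with Lum (7.42, 6.82 and 7.28) and Col1a2 (6.13, 5.49 and 5.66) lowest in untreated SAMP8, Col3a1 (3.39, 3.73 and 3.55) lowest in SAMR1 and Col1a1 (5.73, 5.73 and 5.86) highest with TG. How far the amount of meninges in the samples enters the averages of Serping1 was not tested. Oligodendrocyte markers were lower in SAMP8 than in SAMR1 in 5 of 8 cases, 1 of them past 1.5-fold (Mobp, -0.80), with a median log2 difference of -0.23, beside 49.0% and 6.08% of all probe sets. With TG, 7 of 8 were higher than in SAMP8, 3 of them past the limit, beside 50.0% and 4.48%. C4b, which oligodendrocytes can express, differed by -0.19 between the strains and by 0.05 with TG. Border macrophage and leukocyte markers held 1 of 10 past the limit between the strains, Mrc1 at 5.51, 6.51 and 6.27, and 0 of 10 with TG, beside 11.1% and 8.21% of all probe sets. Of 8 choroid plexus markers, 2 were higher (Ttr, 0.88 and Kl, 0.67) and 1 lower (Kcne2, -0.84) past the limit in SAMP8 than in SAMR1, which is 37.5% beside 11.1% of all probe sets. With TG, 2 were higher and 1 lower past it, beside 4.48% and 3.74%. Of 6 endothelial markers, all averaged higher in SAMP8 than in SAMR1 (0.22 to 0.66 on the log2 scale), beside 49.5% of all probe sets. Their median log2 difference was 0.40, beside 0.12 in the brightest signal class, which holds 3 of the 6, and 0.06 in the next brightest. With TG, 5 of 6 averaged lower than without, beside 48.3%, with a median log2 difference of -0.28. Past the limit were 1 of 6 between the strains (Flt1, 0.66) and 1 of 6 with TG (Slco1a4, -1.0), beside 11.1% and 8.21% of all probe sets. A single blood marker, Alas2 of red cell heme synthesis, could be read, at 5.81, 4.75 and 5.19.

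**Figure D5:**
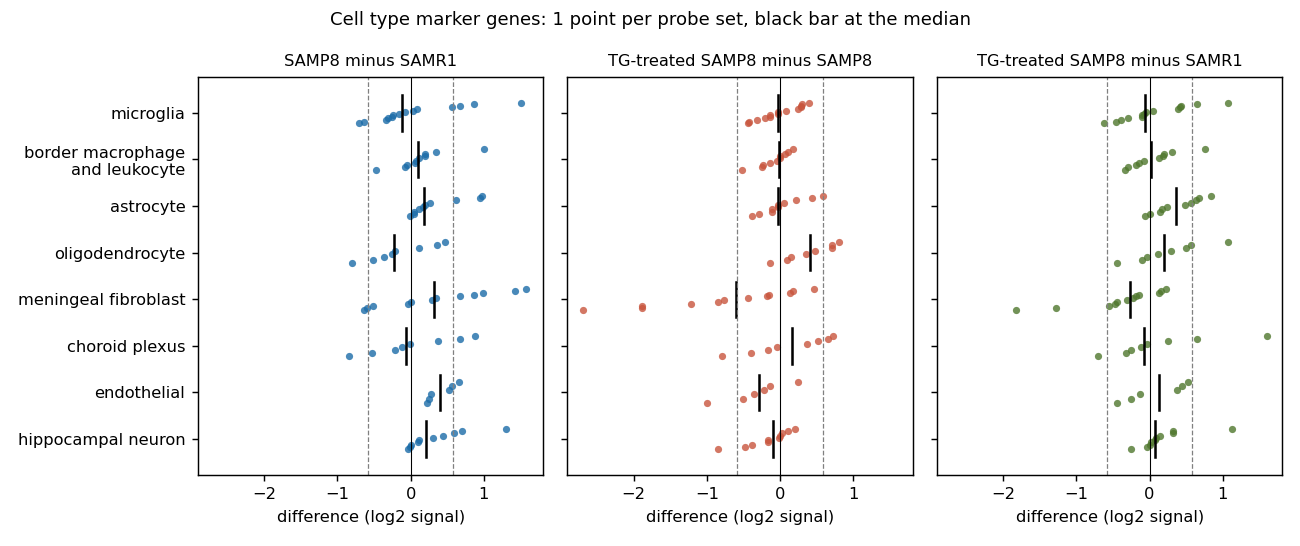
Differences of group averages (log2 signal, horizontal axis) of cell type marker genes, 1 point per probe set, in the 3 comparisons, with medians as black bars and 1.5-fold as dashed lines. The meningeal fibroblast list has its median at -0.60 for TG-treated SAMP8 minus SAMP8, and the microglia list at -0.12 for SAMP8 minus SAMR1.

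C1qb, the member with the widest range over the groups (0.80), was compared with the other single-gene probe sets outside these lists by the Euclidean distance between centred averages of the 3 groups. The closest were Rcbtb2 at a distance of 0.014, with averages of 6.77, 7.58 and 7.17 in the same order of groups as above, Rbfox1 at 0.014, with 14.26, 15.05 and 14.65, and Ap4b1 at 0.022, with 4.35, 5.16 and 4.74. Out of 21230 probe sets searched, 118 (0.556%) lay within a distance of 0.1.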

How the data were processed

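Hippocampal RNA was hybridized to Clariom S Mouse arrays, 3 in each of 3 groups. The authors normalized and summarized the arrays by SST-RMA in the Transcriptome Analysis Console (version 4.0.1 in the series text) with the mm10 array annotation. The 2 deposited tables hold the authors' group averages in log2 signal, with 2 decimals, so a difference carries a rounding error of up to 0.01. They also hold the authors' signed linear fold change, stored here as a score, and the authors' unadjusted and adjusted p-value columns. These comparisons were described and not used, and the supplementary values per array were not used. The SAMP8 averages of both tables were identical, so the 3 groups were read together.

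Differences of averages were taken in Python 3.11.15 with numpy 2.4.6 and pandas 2.3.3, plotted with matplotlib 3.10.9 and counted past a fold of 1.5, and the counting was tested on simulated data. No test across arrays could be run from averages. The 4 signal classes were set on the mean of the 3 averages. Alternatives were fold limits of 1.1, 1.2 and 2, centring, and leaving out the lowest 25% of signal. Positions came from RefSeq's GRCm38.p6 table, in which all 48 other complement genes were found. A further gene of that list is not reported here and is left out of the list's counts and medians.

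The members and the gene lists were chosen with earlier results of these data known. All members are named, then the other complement genes past 1.5-fold in any comparison and up to 3 genes of each marker list with large differences. C1ra, C4a, Cfb, Cfd, Cfp, C8b, C8g, Itgb2, Cx3cr1, Siglech, Csf1r, Tyrobp, Neurod6, Alas2, Lum, Col1a1, Col1a2, Col3a1, the neighbours of the C1q genes and the C1q-related genes were picked with their values in view. With 3 arrays behind it, an average has limited precision.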

Additional observations from a re-analysis of the deposited data

How the results depend on the processing

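No paired analysis was possible because the tables hold group averages alone, and for the same reason no array could be left out. Fold limits set the counts. Between SAMP8 and SAMR1, the members past the limit numbered 7 at 1.1-fold, 4 at 1.2-fold and 0 at 2-fold, against 2 at 1.5-fold, where 65.5%, 40.8% and 2.22% of all probe sets were past these limits. With TG against SAMP8 they numbered 6, 4 and 0 beside 63.4%, 38.2% and 0.761%, and against SAMR1 5, 3 and 0 beside 64.9%, 40.5% and 1.81%. The other complement genes numbered 31, 24 and 1 between the strains, 30, 17 and 0 with TG against SAMP8, and 28, 16 and 0 against SAMR1. Subtracting the median of all probe sets left 1 member past the limit between the strains (C1qb at 0.85, with C1qa short of it at -0.56), and so did the median of the own signal class, an alternative chosen after seeing the data (C1qb at 0.88, with C1qa short of it at -0.53), which also left 4 other complement genes. The median of the members between the strains moved from -0.05 to -0.18 when the brightest signal class was centred, and that of the other genes from 0.04 to -0.09, with 1 other gene (C1s1) past the limit with TG where 0 were as deposited. For the other genes this centring was also chosen after seeing the data. Without the lowest signal class, which left 6 of 8 members, the median of the other genes between SAMP8 and SAMR1 was 0.14. The remaining 48 values of counts and medians moved by less than 1.5 times or 0.1.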

Other observations

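Genes whose products carry a C1q-like domain without being complement components were read as well, chosen after the complement values were seen, by the symbols C1ql and C1qtnf. These include C1ql2 and C1ql3, which mossy fibre neurons of the hippocampus release at their synapses, and the C1qtnf genes of secreted, adiponectin-like proteins. Of 11 such probe sets, 0 were past 1.5-fold in any of the 3 comparisons, beside 11.1%, 8.21% and 10.5% of all probe sets. With TG, 9 of 11 averaged higher than in SAMP8, beside 50.0% of all probe sets, with a median log2 difference of 0.26 beside 0.01 over all probe sets, and C1ql3 went the other way, at 12.06 (SAMR1), 12.27 (SAMP8) and 11.88 (TG-treated SAMP8). C1qtnf4, which is expressed in the brain, averaged 8.15, 8.28 and 8.63, and C1ql1, a ligand at cerebellar and other synapses, 8.10, 8.15 and 8.52. C1ql2 stayed between 6.57 and 6.68. These are group averages without an error.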
